A study of Mus musculus with 9 samples.

Results

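Podocyte and slit diaphragm genes were followed in whole mouse kidney through 9 named genes: Nphs1, Magi2, Podxl, Ptpro, Plce1, Synpo, Nes, Wt1 and Cdkn1c. They were taken by symbol from a table of 52636 genes, and all 9 were among the 17114 genes that had enough reads to be tested. RNA sequencing covered 3 libraries each of kidneys from C59A knock-in, C59S knock-in and WT (unaltered) mice, 9 libraries in all, under no further treatment that the labels name. Both knock-ins replace the Cys-59 codon of Nfkb1, which encodes the p50 subunit of the transcription factor NF-κB, with C59A naming an alanine and C59S a serine. The alleles were made in C57BL/6NTac-derived embryonic stem cells with a PGK-neo selection cassette left in a nearby intron, and as germline changes they are not restricted to any kidney cell type. The labels describe C59A mice as NF-κB activated and C59S mice as inactivated, but their sentence on DNA binding names a reducing and an increasing change in the opposite order, so the alleles are called here by their residue only. Age, sex, zygosity and litter are not given, and whether each replicate came from its own animal is not stated. The p-values therefore reflect spread between these libraries only, which may be technical.

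Podocytes are the epithelial cells that wrap the capillaries of the glomerulus with interlocking foot processes. Neighbouring foot processes are joined by the slit diaphragm, a cell junction built around nephrin, and loss of its components leads to protein in the urine. Podocytes also keep a strongly charged apical surface, an actin cytoskeleton shaped for the foot processes, and a set of nuclear regulators that hold them in a non-dividing state.

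Nphs1 and Magi2, the slit diaphragm pair, were both lower in C59A kidneys than in WT and than in C59S kidneys. Of the 9 genes, all were lower in every C59A library than in any C59S library, as were 14.5% of all tested genes. Of these differences 5 passed the test, where 2.56% of all tested genes were called lower. The members were chosen with earlier results of these data known. The shares over all genes, here and below, are therefore given for scale and are no test of the members as a set. No member passed the test between C59S and WT, and 0% of all tested genes did. Cdkn1c and Nes were nevertheless higher in every C59S library than in any WT library, as were 11.2% of all tested genes. In whole tissue, fewer podocytes and less RNA per podocyte cannot be told apart.

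Total counts were 16367403 to 23744707 in C59A, 18603933 to 25787659 in C59S and 18428728 to 21144972 in WT libraries, and 3 counts, taken as the limit of detection, were worth 0.112 to 0.202 CPM (counts scaled to normalised library size). Mitochondrial genes took 20.8% to 28.8% of the counts in C59A, 20.5% to 40.6% in C59S and 16.4% to 19.6% in WT libraries. The 40.6% belonged to C59S replicate 3, beside 25.3% in C59S replicate 1 and 20.5% in C59S replicate 2. Reads of 4 Y-linked genes numbered 2891 to 3507 in C59A libraries, against 0 to 38 in the C59S and 0 to 5 in the WT libraries. Xist, the non-coding RNA of the inactive X chromosome, had 4 to 12 reads in C59A libraries, against 13268 to 23875 in C59S and 17108 to 29644 in WT libraries. In every comparison of C59A, sex and allele therefore cannot be told apart. The kidney identity of the libraries was clear, with summed proximal tubule markers at 10800 to 14200 CPM in C59A, 9440 to 11600 CPM in C59S and 13000 to 14500 CPM in WT libraries.

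The DNA upstream of the members that passed a test, other than Cdkn1c, is shown because the altered protein is a subunit of a DNA-binding factor. RefSeq (GRCm38.p6) windows of 250 bases before to 50 after the transcript start were used for 5 of the 9 members, namely Nphs1, Magi2, Ptpro, Plce1 and Nes. Printed are the 250 bases before the start, plus strand, for Nphs1 (chr7:30459808-30460057), Magi2 (chr5:19226796-19227045, the first of its 2 windows), Plce1 (chr19:38523947-38524196) and Nes (chr3:87970843-87971092). Capitals mark GGGNNNNNCC on either strand, a loose form of the NF-κB binding site. The windows of Nphs1 and Plce1 lie inside the spans that the deposited table gives for those genes, whose first annotated start is farther upstream.
Nphs1: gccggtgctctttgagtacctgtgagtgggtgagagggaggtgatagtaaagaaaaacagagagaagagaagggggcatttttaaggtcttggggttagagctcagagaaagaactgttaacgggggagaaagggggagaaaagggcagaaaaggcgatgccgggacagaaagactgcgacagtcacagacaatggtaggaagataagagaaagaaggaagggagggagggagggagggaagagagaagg
Magi2: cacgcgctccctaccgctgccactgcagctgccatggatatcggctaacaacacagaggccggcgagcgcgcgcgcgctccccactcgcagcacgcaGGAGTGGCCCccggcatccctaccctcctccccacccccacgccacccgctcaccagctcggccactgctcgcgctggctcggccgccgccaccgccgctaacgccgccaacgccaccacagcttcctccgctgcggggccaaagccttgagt
Plce1: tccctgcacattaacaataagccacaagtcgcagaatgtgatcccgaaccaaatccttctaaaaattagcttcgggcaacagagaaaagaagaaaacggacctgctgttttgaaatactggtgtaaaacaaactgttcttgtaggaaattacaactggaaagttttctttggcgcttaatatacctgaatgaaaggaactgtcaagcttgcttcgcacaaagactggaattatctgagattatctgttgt
Nes: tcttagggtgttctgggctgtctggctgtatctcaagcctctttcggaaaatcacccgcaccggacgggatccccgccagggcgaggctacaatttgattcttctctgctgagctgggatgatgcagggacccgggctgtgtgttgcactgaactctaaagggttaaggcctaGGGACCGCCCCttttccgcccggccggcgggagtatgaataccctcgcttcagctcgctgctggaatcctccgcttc
The window of Nphs1 holds no such match and neither does that of Plce1. Magi2 has 1 match, and Nes has 2 that overlap each other. Ptpro, whose window is not printed, has 3. GGGNNNNNCC thus occurred in 3 of these 5 members, or 3 of their 6 windows, and in 50.8% of all 32851 RefSeq windows, a similar share. The other motifs were also searched on both strands, counting overlaps between motifs. CANNTG occurred in 3 of the 5 members, or 4 of their 6 windows, and in 72.3% of all windows. GGGCGG occurred in 2 members and in 35.7% of windows, while TATAAA occurred in none and in 13.6% of windows. CAGGTG, which is contained in CANNTG, and TAATTA each occurred in 1 member, against 20.2% and 5.29% of windows. Both matches lay in the second window of Magi2, which is not printed. GTGGGNGGG and GCGGGGGCG occurred in no member, against 8.05% and 2.91% of windows. A match describes letters only, and the 8 motifs were chosen with the results known.

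Nphs1 (ENSMUSG00000006649, chr7:30458315-30487223 on GRCm38) encodes nephrin, the transmembrane protein that spans the slit. It had 48.1, 30.9 and 43.3 CPM in C59A kidneys, 75.6, 87.4 and 74.7 CPM in C59S kidneys and 81.6, 58.4 and 93.4 CPM in WT kidneys. All 3 C59A libraries lay below every other library, while C59S and WT overlapped. Relative to WT, Nphs1 fell in C59A by 0.93 on the log2 scale (SE 0.19, adjusted p = 0.0171, edgeR quasi-likelihood test with Benjamini-Hochberg adjustment over all tested genes), which is 0.524 of the WT level. Relative to C59S it fell by 0.96 (SE 0.19, edgeR adjusted p = 0.0167). Between C59S and WT the log2 difference was 0.03, with a 95% interval of -0.39 to 0.44. Against WT the adjusted p was 0.0545 without C59A replicate 3, 0.066 without WT replicate 1 and 0.0503 without WT replicate 3, and against C59S it was 0.054 without C59A replicate 3, 0.0634 without C59S replicate 2 and 0.0535 without C59S replicate 3.

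Magi2 (ENSMUSG00000040003, chr5:19227036-20704792) encodes a scaffold protein that binds nephrin at the inner face of the slit diaphragm. It had 6.81, 6.34 and 6.62 CPM in C59A kidneys, 11.8, 13 and 9.78 CPM in C59S kidneys and 11.9, 10.8 and 12.5 CPM in WT kidneys. The 3 C59A values were close together and below all 6 others, and C59S overlapped WT. Magi2 fell in C59A relative to WT by 0.83 (SE 0.16, edgeR adjusted p = 0.0105), and this call held when any single library was left out. It fell by 0.81 relative to C59S (SE 0.16, edgeR adjusted p = 0.0146), with adjusted p = 0.0555 without C59A replicate 1, 0.0524 without C59A replicate 3 and 0.0656 without C59S replicate 2. The C59S minus WT log2 difference was -0.03, with a 95% interval of -0.36 to 0.31. With the mitochondrial share of each library as a covariate, neither Nphs1 (-0.81, edgeR adjusted p = 0.078) nor Magi2 (-0.71, edgeR adjusted p = 0.056) passed between C59A and WT, though most of each log2 difference remained.

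In all, 2 of the 9 members, Nphs1 and Magi2, were called lower in C59A than in WT, as were 2.46% of all tested genes. Groups did not overlap, with C59A lower, for 3 of the 9 members, the third being Synpo, and for 12% of all genes. The median log2 difference of the 9 members was -0.61, beside -0.02 over all genes, and all 9 were negative, as were 52.4% of all genes. The remaining 7 did not pass this test, with values from -0.71 (Ptpro, SE 0.29, edgeR adjusted p = 0.204) to -0.34 (Plce1, SE 0.22, edgeR adjusted p = 0.4). The 3 comparisons share libraries, so they are not independent of one another.

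**Figure D1:**
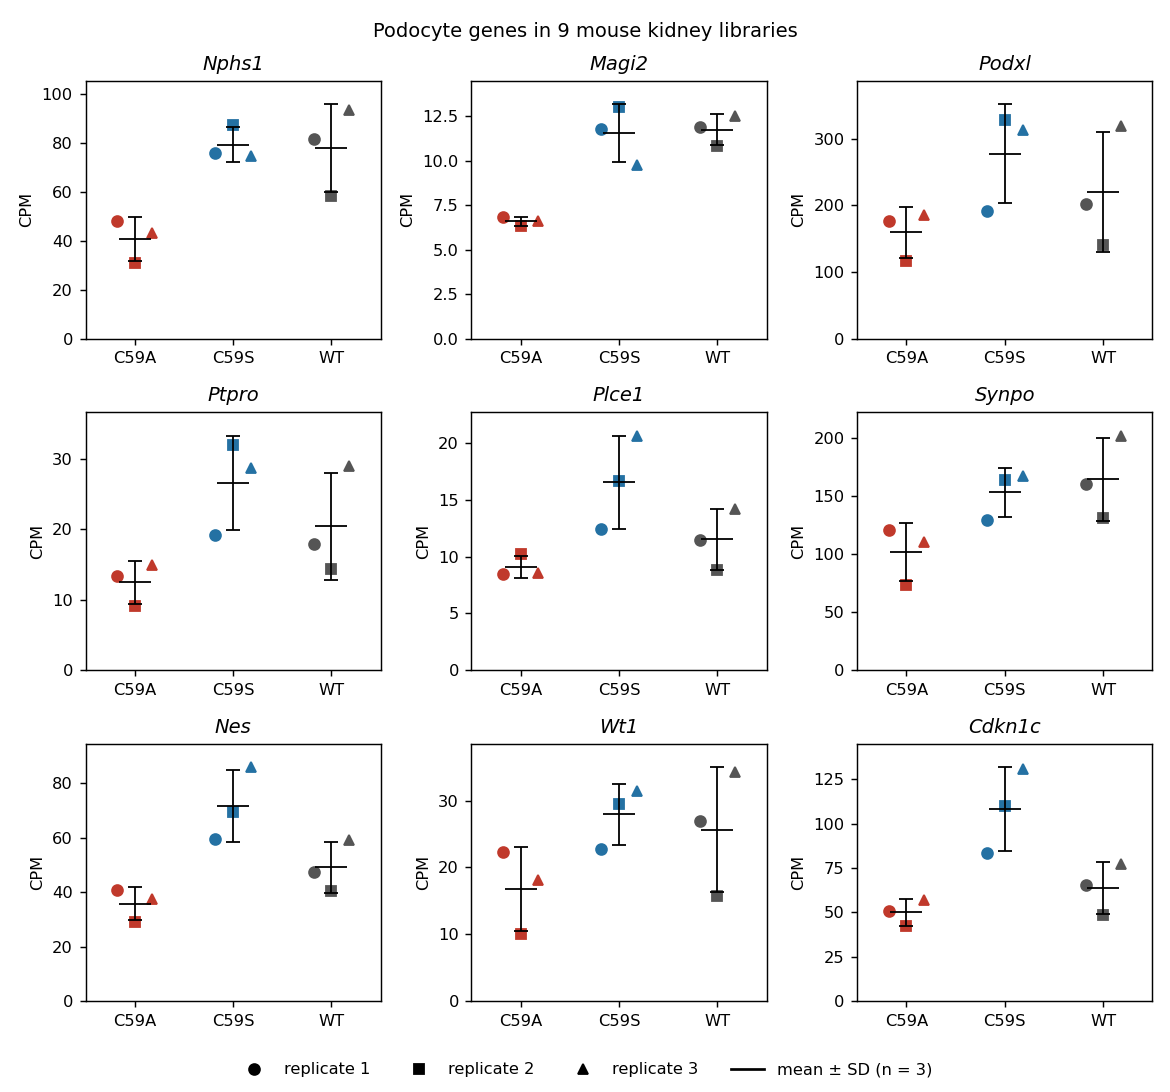
Level of each of the 9 genes in CPM (vertical axis, own scale per gene) in C59A, C59S and WT libraries; points are single libraries, and lines with bars are the mean ± SD of 3 libraries. The C59A points lie below all C59S points in every panel, and below all WT points for Nphs1, Magi2 and Synpo.

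The apical surface genes varied widely within genotypes. Podxl encodes podocalyxin, the sialylated protein that coats the apical membrane, and had 177, 116 and 186 CPM in C59A, 192, 327 and 312 CPM in C59S and 202, 140 and 318 CPM in WT kidneys. Ptpro, the receptor tyrosine phosphatase also known as GLEPP1, had 13.4, 9.06 and 15 CPM in C59A, 19.2, 32.1 and 28.7 CPM in C59S and 17.9, 14.4 and 29 CPM in WT kidneys. For both genes C59A overlapped WT but not C59S, and replicate 3 of WT stood well above the other WT libraries. The C59A minus C59S log2 difference of Podxl was -0.79 (SE 0.31, edgeR adjusted p = 0.168). That of Ptpro was -1.09 (SE 0.29, edgeR adjusted p = 0.0611), with only Cdkn1c lower among the 9 genes, yet it was short of the threshold, and it passed with DESeq2 (adjusted p = 0.00593).

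Plce1 (ENSMUSG00000024998, chr19:38481109-38785030) encodes phospholipase C epsilon, a signalling enzyme whose loss causes nephrotic syndrome in humans. It had 8.44, 10.2 and 8.57 CPM in C59A, 12.4, 16.7 and 20.6 CPM in C59S and 11.5, 8.84 and 14.2 CPM in WT kidneys. C59A lay below C59S throughout and overlapped WT. It fell in C59A relative to C59S by 0.86 (SE 0.22, edgeR adjusted p = 0.0397), a call that was lost when any of 5 libraries was left out. The adjusted p was 0.138 without C59A replicate 1, 0.136 without C59A replicate 3, 0.104 without C59S replicate 2, 0.165 without C59S replicate 3 and 0.0603 without WT replicate 1.

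Of the cytoskeletal genes, Synpo encodes synaptopodin, an actin-binding protein of the foot processes, and had 121, 73.6 and 110 CPM in C59A, 129, 164 and 167 CPM in C59S and 160, 131 and 202 CPM in WT kidneys. C59A was below both other genotypes without overlap, but neither difference passed with edgeR: -0.69 against WT (SE 0.21, edgeR adjusted p = 0.078) and -0.6 against C59S (SE 0.21, edgeR adjusted p = 0.118). Against WT it passed with DESeq2 (-0.68, adjusted p = 0.0295), without a filter on low counts (-0.7, edgeR adjusted p = 0.0311) and with library totals alone (-0.92, edgeR adjusted p = 0.0238). Nes (ENSMUSG00000004891, chr3:87971078-87980451) encodes nestin, an intermediate filament protein that podocytes share with neural and some vascular cells. Nes had 41, 29 and 37.6 CPM in C59A, 59.6, 69.5 and 86 CPM in C59S and 47.5, 40.5 and 59.3 CPM in WT kidneys. Here C59S stood above WT as well as above C59A, the lowest C59S library being just over the highest WT library. Nes fell in C59A relative to C59S by 1 on the log2 scale (SE 0.18, edgeR adjusted p = 0.011), with adjusted p = 0.053 without C59S replicate 3. Summed neural and Schwann cell markers were 8.72 to 25.3 CPM in C59A, 16.3 to 23.8 CPM in C59S and 12.5 to 17.8 CPM in WT libraries. Vascular smooth muscle markers summed to 261 to 450 CPM in C59A, 305 to 875 CPM in C59S and 289 to 359 CPM in WT libraries. Between C59S and WT the median log2 difference was 1.04 for the smooth muscle list (5 of 5 positive) and 0.86 for the glomerular endothelial list (12 of 12 positive), none of whose genes passed with edgeR, beside 0.54 for Nes. The part of these cells in the Nes values was not tested.

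Of the nuclear genes, Wt1 encodes a zinc-finger transcription factor that podocytes keep throughout life, and Cdkn1c encodes p57, an imprinted inhibitor of the cell cycle. Wt1 had 22.3, 10 and 18.1 CPM in C59A, 22.8, 29.5 and 31.5 CPM in C59S and 27, 15.7 and 34.3 CPM in WT kidneys. The highest C59A library was only just below the lowest C59S library, and C59A overlapped WT. Wt1 differed by -0.73 between C59A and C59S (SE 0.33, edgeR adjusted p = 0.224). Wt1 is also made by the mesothelium that covers the kidney, whose 5 markers summed to 2.86 to 28.9 CPM in C59A, 15.2 to 44.8 CPM in C59S and 2.01 to 7.7 CPM in WT libraries. The part of mesothelium in the Wt1 values was not tested.

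Cdkn1c (ENSMUSG00000037664, chr7:143458339-143461050) had 50.7, 42.1 and 57.2 CPM in C59A, 83.6, 110 and 131 CPM in C59S and 65.3, 48.3 and 77.3 CPM in WT kidneys. C59S was above all other libraries, and C59A overlapped WT. Cdkn1c fell in C59A relative to C59S by 1.11 (SE 0.2, edgeR adjusted p = 0.0113), the largest of the member differences. The adjusted p was 0.0555 without C59A replicate 1 and 0.0508 without C59S replicate 3. Its C59S minus WT difference was 0.76 (SE 0.2, 95% interval 0.32 to 1.21, edgeR adjusted p = 0.139).

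Between C59A and C59S, 5 of the 9 members (Nphs1, Magi2, Plce1, Nes and Cdkn1c) fell, where 2.56% of all tested genes were called lower. Non-overlapping groups with C59A lower were found for 9 of 9 members and for 14.5% of all genes. The member median was -0.86, beside -0.01 over all genes, of which 51% were negative. The count of called members was 2 without C59A replicate 1, 2 without C59A replicate 3, 2 without C59S replicate 2 and 1 without C59S replicate 3, while leaving out any WT library gave 4 to 6.

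Between C59S and WT, edgeR called 0 of the 9 members, and 0% of all 17114 genes. At an unadjusted p under 0.05 there were 3 members (Plce1, Nes and Cdkn1c) and 3093 genes (18.1%), and DESeq2 called 636 genes with 1 member, Cdkn1c (adjusted p = 0.0275). Groups that did not overlap, with C59S higher, comprised 2 members, Nes and Cdkn1c, and 11.2% of all genes. Libraries of C59S and WT with the same replicate number deviated together, though no label pairs them and the deposited column names carry other numbers. With replicate as a block, a choice made from these same data, edgeR called 638 genes in a fit of these 2 genotypes. Nes was then called, with a log2 difference of 0.53 (edgeR adjusted p = 0.049), and Cdkn1c at 0.75 was just short (edgeR adjusted p = 0.0591). Cdkn1c also passed without WT replicate 3 (0.93, edgeR adjusted p = 0.0417). Of the other 5 members not yet given here, Plce1 differed by 0.52 (95% interval 0.05 to 0.99) and Ptpro by 0.38 (-0.26 to 1.02). Podxl differed by 0.33 (-0.36 to 1.03), Wt1 by 0.12 (-0.61 to 0.85) and Synpo by -0.1 (-0.55 to 0.36).

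**Figure D2:**
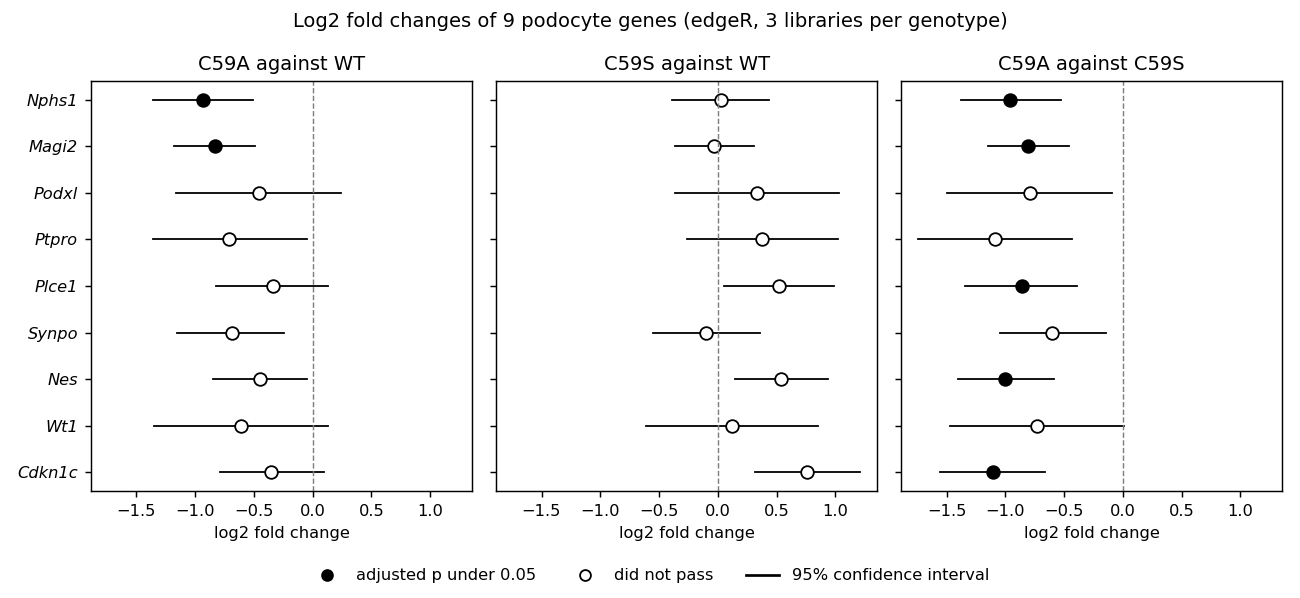
Log2 fold change of each of the 9 genes (horizontal axis) with its 95% interval, for C59A against WT, C59S against WT and C59A against C59S; filled points passed the edgeR test at an adjusted p under 0.05. All points lie below 0 for C59A against WT and C59A against C59S, and between -0.1 and 0.76 for C59S against WT.

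Read across libraries, the 9 genes mostly shared their lowest library but not their highest. C59A replicate 2 was the lowest library for 8 of the 9, the exception being Plce1, lowest in C59A replicate 1. The highest library was C59S replicate 2, C59S replicate 3 or WT replicate 3, with 3 genes each. Plce1, Nes and Cdkn1c, the members with an unadjusted p under 0.05 between C59S and WT (edgeR), were highest in C59S replicate 3. That library also had the largest mitochondrial share and the highest adipocyte and smooth muscle marker sums, at 626 and 875 CPM. Its part in the C59S values was not tested. On the mean log2 profile over the members, C59A libraries stood at -0.32, -0.79 and -0.36, C59S libraries at 0.12, 0.53 and 0.54 and WT libraries at 0.11, -0.29 and 0.46. WT replicate 2 thus lay at the level of the 2 higher C59A libraries, and the spread inside WT was as wide as some of the differences between genotypes.

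Per length of transcript, as the deposited FPKM, which scale counts by gene length and library size, Podxl was the highest member in WT kidneys at 39.4 ± 16.3 (SD, n = 3). Cdkn1c followed at 30.7 ± 7.07, Synpo at 16.9 ± 3.71 and Nphs1 at 11.5 ± 2.66 FPKM (SD, n = 3). Nes reached 7.51 ± 1.47, Wt1 4.07 ± 1.5, Ptpro 2.99 ± 1.13, Magi2 1.02 ± 0.0733 and Plce1 0.706 ± 0.166 FPKM (SD, n = 3). Each member exceeded the next in all 3 WT libraries, although the ranges of Podxl and Cdkn1c, of Synpo and Nphs1, of Nphs1 and Nes, and of Wt1 and Ptpro overlapped. The C59A means kept this order, with Podxl at 28.9 ± 7.04 and Nphs1 at 6.11 ± 1.35 FPKM (SD, n = 3). In C59S kidneys Cdkn1c, at 52.6 ± 11.9 FPKM, had a higher mean than Podxl, at 50.1 ± 13.7 FPKM (SD, n = 3), and was above it in 2 of the 3 libraries.

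The balance between members was compared by dividing the length-scaled level of Nphs1 by that of each other member within a library, a measure chosen after the member values had been seen. Nphs1 per Cdkn1c was 0.293, 0.226 and 0.233 in C59A and 0.278, 0.246 and 0.175 in C59S, against 0.385, 0.372 and 0.372 in WT. WT was nearly constant and lay above both knock-ins, which overlapped each other. Nphs1 per Nes was 1.14, 1.03 and 1.12 in C59A and 1.23, 1.22 and 0.842 in C59S, against 1.67, 1.4 and 1.53 in WT. Nphs1 per Plce1 was 13.8, 7.33 and 12.2 in C59A and 14.7, 12.6 and 8.78 in C59S, against 17.2, 16 and 15.9 in WT. For each of these ratios every WT library exceeded all 6 knock-in libraries. The C59S ratios restate differences given above, since Nphs1 differed from WT by 0.03 there, and Cdkn1c, Nes and Plce1 by 0.76, 0.54 and 0.52. In C59A, by contrast, Nphs1 itself was lower than in WT.

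The ratio to Podxl and to Synpo was also lower without overlap in C59A than in WT, so that 5 of the 8 ratios were, and 3 of 8 were lower in C59S than in WT. As background, the ratio of Nphs1 to any tested gene with reads in every library was lower without overlap for 60.8% of 16902 genes between C59A and WT, since Nphs1 itself was lower there, and for 5.56% between C59S and WT. Every one of these non-overlapping ratios had an exact two-sided permutation p of 0.1, the smallest that 3 against 3 libraries can give, and 0.267 after adjustment over the 24 ratios compared. Between C59A and C59S only the ratio to Synpo did not overlap, at 0.569 to 0.604 in C59A and 0.644 to 0.844 in C59S, where the background share was 70.1%.

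**Figure D3:**
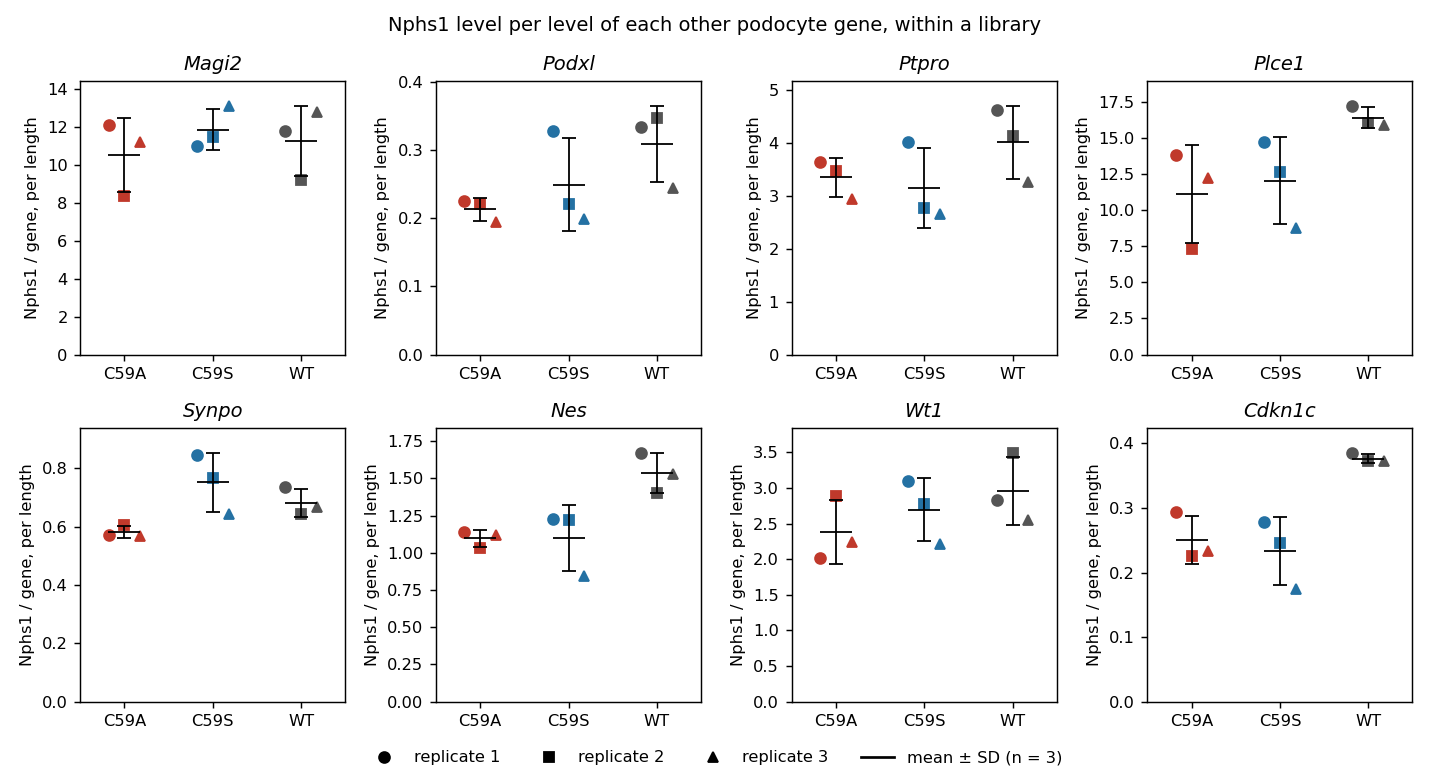
Ratio of the length-scaled level of Nphs1 to that of each other member (vertical axis) in C59A, C59S and WT libraries; points are single libraries, and lines with bars are the mean ± SD of 3 libraries. For Cdkn1c, Nes and Plce1 the WT points lie above all C59A and C59S points, as with 0.372 to 0.385 in WT for Cdkn1c.

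A wider set of 49 podocyte genes, grouped as other slit and junction genes, cytoskeletal genes, transcription factors, basement membrane genes and surface or secreted genes, was read from the same tests. Between C59A and WT, 0 of 49 passed with edgeR, where 2.46% of all genes were called lower and 3.24% higher. Of the 49, 12 had an unadjusted p under 0.05, as did 21% of all genes. DESeq2 called 1552 of 17925 genes, 3 of them among the 49. The median log2 difference was -0.25, with 37 of 49 negative. Those nearest the threshold were Col4a5, a collagen chain of the glomerular basement membrane, at -0.45 (edgeR adjusted p = 0.0699), and Mertk, a receptor tyrosine kinase, at -0.39 (edgeR adjusted p = 0.0755). Pard3b, a polarity protein gene, followed at -0.57 (edgeR adjusted p = 0.0766) and Foxc2, a forkhead factor of developing and mature podocytes, at -0.74 (edgeR adjusted p = 0.0863). Without WT replicate 2 the number that passed was 5.

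Between C59A and C59S, 5 of the 49 were called lower and none higher, where 2.56% of all genes were called lower and 3.35% higher. The median of the 49 was -0.29 and 35 of 49 were negative. Groups did not overlap for 22 with C59A lower, as for 14.5% of all genes, and for 2 with C59A higher. These 2 were Pard3, a slit and junction gene, at 0.3 (edgeR adjusted p = 0.153) and Vegfa at 0.37 (edgeR adjusted p = 0.211). Of 12 other slit and junction genes, 3 fell: Pard3b by 0.81 (SE 0.17, edgeR adjusted p = 0.0195), Robo2 by 1.12 (SE 0.28, edgeR adjusted p = 0.0452) and Tjp1 by 0.61 (SE 0.16, edgeR adjusted p = 0.0487). Robo2 is a guidance receptor and Tjp1 encodes the junction protein ZO-1. Pard3b had 8.68, 6.9 and 8.57 CPM in C59A, 12.2, 14.8 and 15.6 CPM in C59S and 12.1, 10.2 and 13.6 CPM in WT kidneys, with C59A below both. Among 6 transcription factors Foxc2 fell by 0.92 (SE 0.23, edgeR adjusted p = 0.0389), and among 10 basement membrane genes Lamc1, a laminin chain, fell by 0.8 (SE 0.16, edgeR adjusted p = 0.0168). None of the 10 cytoskeletal or 11 surface genes passed. Without C59A replicate 1, C59A replicate 3 or C59S replicate 3 the count of called genes was 0, without C59S replicate 2 it was 1, and without WT replicate 1 it was 2. It was 3 without C59A replicate 2 and 8 without WT replicate 2.

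Vegfa, the growth factor that podocytes and tubule cells supply to the endothelium, had 520, 402 and 466 CPM in C59A and 337, 401 and 333 CPM in C59S, against 738, 617 and 546 CPM in WT. Both knock-ins lay below WT without overlap. The log2 difference from WT was -0.45 for C59A (SE 0.17, edgeR adjusted p = 0.147) and -0.83 for C59S (SE 0.17, edgeR adjusted p = 0.121), and neither passed. With replicate as a block in the fit of C59S and WT, Vegfa did pass as lower in C59S (-0.83, SE 0.14, edgeR adjusted p = 0.0351), as it did with DESeq2 (adjusted p = 0.000276) and without a filter on low counts (edgeR adjusted p = 0.00665). Of the 49 genes, 0 passed between C59S and WT without the block, as did 0% of all genes. An unadjusted p under 0.05 was found for 9 of the 49 and for 18.1% of all genes. The block brought the count to 4, while it also raised the calls over all genes, as given above. Besides Vegfa these were Ildr2 at -0.49 (edgeR adjusted p = 0.0419), Itgb1, an integrin chain, at 0.54 (edgeR adjusted p = 0.0448) and Foxc1, a forkhead factor, at 0.52 (edgeR adjusted p = 0.0476).

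Markers of the other glomerular cells were read beside these values. The 12 glomerular endothelial markers summed to 821 to 854 CPM in C59A, 1150 to 2060 CPM in C59S and 428 to 944 CPM in WT libraries. Between C59A and WT 8 of the 12 were positive and none passed, whereas the median log2 difference was -0.61 for the 9 podocyte members and 0.08 for these markers. The distal and proximal tubule lists had negative medians there too, at -0.9 for 5 distal tubule markers (5 of 5 negative, 3 called lower) and -0.44 for 10 proximal tubule markers (6 of 10 negative, 1 called lower and 2 higher). Between C59A and C59S all 12 were negative, with a median of -0.73. There Pecam1 fell by 0.92 (edgeR adjusted p = 0.0396) and Cdh5 by 0.95 (edgeR adjusted p = 0.0478), which encode junction proteins found in endothelium generally. Kdr, a defining marker, had 60.6, 60.3 and 64.2 CPM in C59A, 81.2, 120 and 135 CPM in C59S and 57.5, 32.5 and 98.6 CPM in WT kidneys. One of the 12, Fabp4, is also an adipocyte gene, and without it the sums were 660 to 732 CPM in C59A, 1000 to 1410 CPM in C59S and 401 to 890 CPM in WT libraries.

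The 10 mesangial and juxtaglomerular markers summed to 235 to 292 CPM in C59A, 352 to 426 CPM in C59S and 264 to 539 CPM in WT libraries. All 10 were negative between C59A and C59S, where Itga8, an integrin of mesangial cells, fell by 1.01 (edgeR adjusted p = 0.0424) and Hopx by 0.91 (edgeR adjusted p = 0.047). Between C59A and WT 9 of 10 were negative, with a median of -0.24, and Akr1b7 fell by 1.15 (edgeR adjusted p = 0.045). Pecam1, Cdh5, Hopx and Akr1b7 were named after their values were seen. Adipocyte markers summed to 1.25 to 137 CPM in C59A, 3.76 to 626 CPM in C59S and 0.552 to 1 CPM in WT libraries. The part of these other cells in the podocyte gene values was not tested.

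**Figure D4:**
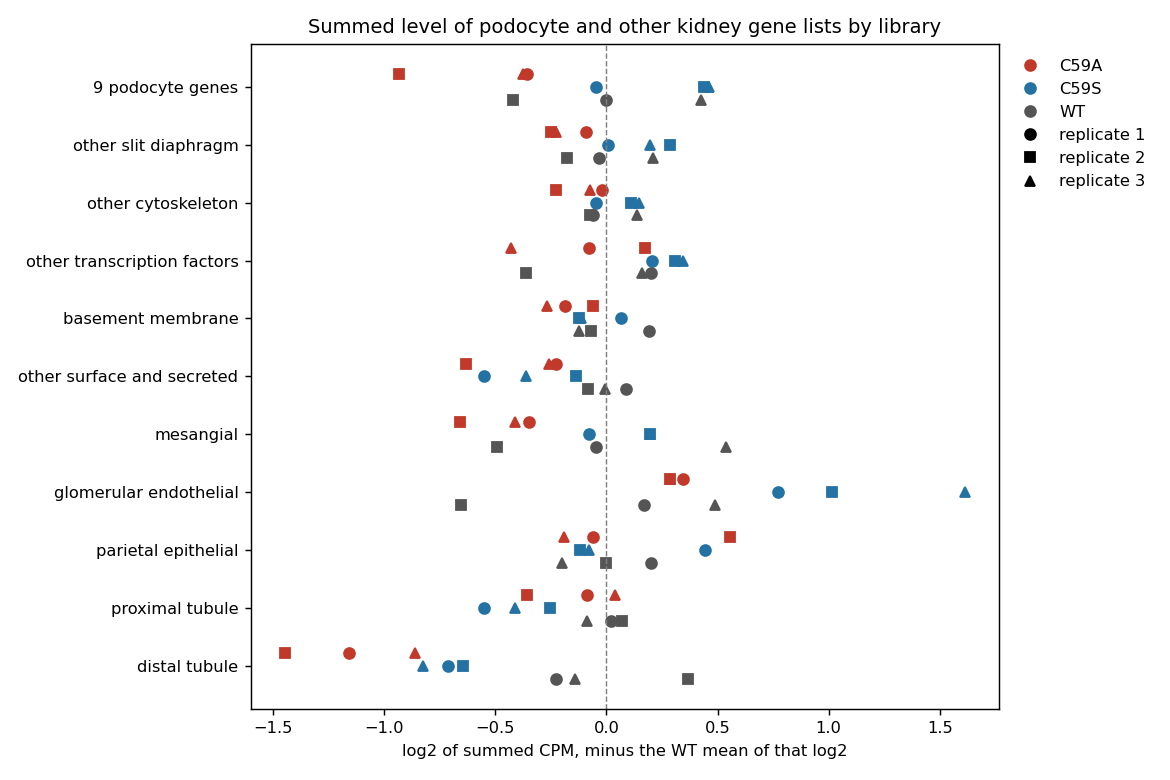
Summed CPM of the 9 podocyte genes, of the other podocyte lists and of marker lists for other kidney cells, as log2 minus the WT mean (horizontal axis); points are single C59A, C59S and WT libraries. The podocyte sums ran from 328 to 489 in C59A, 606 to 861 in C59S and 467 to 839 in WT libraries, and all C59S glomerular endothelial sums lay above those of the other genotypes.

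Likeness to the members was measured among 13417 protein-coding genes with a mean of at least 1 CPM. It was the root-mean-square log2 difference from the members' mean profile over the 9 libraries, where a smaller value means a closer pattern. Pard3b was closest of these, at 0.1, and Sema3g, a secreted semaphorin made by podocytes, ranked 10. Other genes of the podocyte lists ranked far down, such as Col4a4 at 11236 and Foxc1 at 12198, and the member Magi2 ranked 311. Outside every list the closest were Syt7 at 0.11, Pygm, Prr5l and Armcx4 at 0.12 and Pkdcc at 0.13. Ust and Srgap1 at 0.14 and Zbtb7c at 0.15 completed the 8. The members' own profile had a root-mean-square of 0.44 around 0. These values describe the same 9 libraries from which the members' profile was made, and carry no test.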

How the data were processed

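Total RNA of whole kidney was sequenced after TRIzol extraction and NEBNext Ultra library preparation, per the labels' protocols. The authors deposited raw read counts per gene and FPKM values. The submitters' processing notes name the build GRCm38 and the tools HISAT2 2.0.5 and featureCounts 1.5.0-p3, beside CASAVA 1.8, fastp and DESeq2 1.20.0; counting parameters, strand setting and annotation release are not given in the sources used here. Without a known strand setting, reads of overlapping genes cannot be assigned with certainty: Rps12-ps4, inside Nphs1, had 4.41% as many reads as Nphs1, and genes overlapping Magi2, Ptpro, Plce1 or Cdkn1c had at most 1.17%. The deposited FPKM equal count over length over a constant per library.

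From the counts, CPM with TMM scaling were computed, and all 9 libraries were fitted together by genotype with edgeR 4.0.16 in R 4.3.3 (filterByExpr, robust quasi-likelihood test, Benjamini-Hochberg over 17114 genes, threshold 0.05). Intervals are 95% and use the fit's standard error. Log2 CPM for likeness used a prior count of 2. No replicate pair was close to counting noise (chi-square per degree of freedom 24.7 to 136). Scripts were tested on simulated data.

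The members and all gene lists were chosen with earlier results of these data known. All 9 members are named, and of the other podocyte genes those called in the main fit and a selection of the rest. Others of small p are not described above, such as Thsd7a at -1.15 between C59A and C59S (edgeR adjusted p = 0.0508). The labels name no pairing of libraries. Replicate numbers were treated as pairs where every same-numbered pair's deviations correlated above 0.1 across genes. C59S and WT gave 0.32, 0.2 and 0.26, whereas C59A and WT gave 0.01, -0.09 and 0.05 and C59A and C59S -0.09, -0.29 and 0.05. These replicate numbers are those of the sample titles. By the numbers in the deposited column names, C59S and WT share only one, which joins C59S replicate 2 to WT replicate 3. The deviations of those libraries correlated at 0.01. This rule used the same data as the block fit, so calls made only with the block are no evidence of a paired design. Alternatives comprised other scalings, filters, covariates, blocks, DESeq2 1.42.0, limma 3.58.1 on log2 FPKM and left-out libraries. Promoter windows for Podxl, Synpo, Wt1 and Cdkn1c were not used here.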

Additional observations from a re-analysis of the deposited data

How the results depend on the processing

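Each gene's value was recomputed under 26 alternatives, of which leaving out both WT replicate 2 and C59S replicate 3 was chosen after seeing the data. The counts of called members moved as follows. Between C59A and WT the 2 members called became 4 with library totals alone (which shifted the median of all genes to -0.26), 3 with DESeq2 and without a filter on low counts, 0 with the mitochondrial share as a covariate, 1 with a replicate block in a fit of the 2 groups, 1 with limma on FPKM with a pseudocount of 1 or 0.1, and 0 with limma without a filter, with 1 to 2 over left-out libraries. Between C59A and C59S the 5 became 1 with the 2-group replicate block, 3 with limma on filtered FPKM under both pseudocounts and 0 without a filter, with 1 to 6 over left-out libraries. Between C59S and WT the 0 became 1 without a filter on low counts, with the 2-group replicate block and with DESeq2, with 0 to 1 over left-out libraries.

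The 49 other podocyte genes gave 0 calls between C59A and WT, against 6 with library totals, 3 with DESeq2, 1 without a count filter, with the block over all groups, with limma voom or without both those libraries, and 0 to 5 over left-out libraries. Between C59S and WT they gave 1 without a count filter, 4 with the 2-group replicate block, 2 with DESeq2 and 0 to 2 over left-out libraries. Between C59A and C59S the 5 became 8 without a count filter, 2 with the mitochondrial covariate, 3 with the replicate block, 0 with the 2-group block, 11 with DESeq2, 9 with voom, 1 with limma on filtered FPKM, 0 without a filter, 0 without both libraries and 0 to 8 over left-out libraries.

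Over all genes, the 975 calls between C59A and WT became 434 with the mitochondrial covariate, 390 with the 2-group block, 1552 with DESeq2, 410 with limma on unfiltered FPKM and 599 without both libraries, with 502 to 934 over left-out libraries. Of those 975, 421 were lower, whereas with library totals alone 863 of 1079 were. Between C59S and WT, where the median then shifted to -0.19, library totals gave 20 calls, no count filter 308, the 2-group block 638, DESeq2 636 and left-out libraries 0 to 737. The 1012 calls between C59A and C59S became 670 with library totals, 517 with the mitochondrial covariate, 334 with the 2-group block, 1731 with DESeq2, 1773 with voom, 657 and 670 with limma on filtered FPKM (pseudocounts 1 and 0.1), 278 unfiltered and 374 without both libraries, with 318 to 1307 over left-out libraries.

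The sign of C59S minus WT was not settled for the members near 0. Nphs1 was -0.17 with library totals, -0.1 without both libraries and -0.14 to 0.18 over left-out libraries. Magi2 was 0.16 with the mitochondrial covariate, 0.02 without both libraries and -0.12 to 0.08 over left-out libraries. Podxl was 0 without both libraries, Wt1 -0.1 with library totals, -0.23 without both libraries and -0.14 to 0.39 over left-out libraries, and Synpo -0.24 to 0.08. Under these alternatives no sign turned between C59A and either other genotype for any member. In C59A comparisons same-numbered libraries did not deviate together, so the block values there are given only as counts. The causes of these changes were not tested.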
